A study of Homo sapiens with 6 samples.

Results

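A set of 10 genes of cellular iron handling was read out of a table of 26485 gene entries, by their symbols alone: TFRC, SLC11A2, STEAP3, FTH1, FTL, NCOA4, SLC40A1, HMOX1, IREB2 and ACO1. All 10 have an entry, 8 had a count in some library and 7 had enough counts to be tested. The RNA came from REH, an established human cell line of B-precursor acute lymphoblastic leukemia, in 2 groups of 3 libraries. One group was treated for 24 h with ML141 at 25 µM, a compound that inhibits CDC42, a small GTPase of cell shape and movement, and the other for 24 h with the solvent DMSO; the series' design states 3 independent experiments. Both groups are the same cell line in the same serum-containing medium, so the values describe 1 leukemia line at a single dose and time.

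Cells take up iron mostly as transferrin, which the transferrin receptor carries into endosomes, where iron is reduced and passed to the cytosol. Iron not used is stored in ferritin, a shell of heavy and light chains, and is set free again when ferritin is carried to lysosomes. Iron regulatory proteins bind a short hairpin, the iron-responsive element, in mRNAs of iron genes when iron is scarce. Bound near the start of ferritin mRNA the protein blocks translation, and bound behind the coding region of TFRC mRNA it protects the mRNA from decay. Leukemia cells in culture divide rapidly, and transferrin receptors are abundant on dividing cells.

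The hairpins are shown because the members that moved most carry them at opposite ends of the mRNA. Their part in the shifts of these mRNAs was not tested. Transcripts of GENCODE release 29 (hg38) were searched on the sense strand for the letters CNNNNNCAGTGN followed by 5 bases that pair with the 5 before the loop, G:T pairs allowed. FTH1 and FTL each hold 1 match in the 5′ untranslated region, SLC40A1 holds 1 there, and TFRC holds 4 in the 3′ untranslated region. Such a match occurs in the 5′ region of 0.163% of 19032 protein-coding genes and in the 3′ region of 0.669% of 19146. A match is a description of letters and their pairing. The lack of one in SLC11A2 says only that no stretch of its annotated untranslated regions met both the letters and the pairing rule. It does not show that this mRNA lacks an iron-responsive element. Each line gives the 29 bases of a match, 5′ to 3′, with the 6 bases of the loop in capitals.
FTH1, chr11:61967574-61967602, minus strand: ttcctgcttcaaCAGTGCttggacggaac
FTL, chr19:48965335-48965363, plus strand: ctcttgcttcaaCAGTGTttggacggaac
SLC40A1, chr2:189580661-189580689, minus strand: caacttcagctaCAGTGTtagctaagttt
TFRC, chr3:196050979-196051007, minus strand: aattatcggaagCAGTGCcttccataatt
TFRC, chr3:196050575-196050603, minus strand: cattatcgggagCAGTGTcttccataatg
TFRC, chr3:196050510-196050538, minus strand: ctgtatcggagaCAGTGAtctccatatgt
TFRC, chr3:196050463-196050491, minus strand: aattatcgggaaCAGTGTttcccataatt

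With ML141, mRNA of the uptake receptor TFRC fell 3.31-fold relative to DMSO, while mRNA of the ferritin chains FTH1 and FTL rose 1.46-fold and 1.36-fold. The endosomal transporter SLC11A2 and both iron regulatory proteins, IREB2 and ACO1, fell slightly, and NCOA4, which carries ferritin to lysosomes, did not pass the test. HMOX1 had few counts, and SLC40A1 and STEAP3 were listed at 0 in every library. By edgeR's quasi-likelihood test, at an adjusted p of 0.05 over all genes tested, 2 members were higher and 4 lower out of 7 tested. The same test called 54.4% of all 11454 genes tested, 26.7% higher and 27.7% lower, so a call by itself does not set a member apart. The count of lower members was 2 with upper-quartile factors and 1 with library totals. It was also 2 without ML141 replicate 3 or DMSO replicate 1, and 1 without DMSO replicate 2. The median log2 fold change of the 7 tested members was -0.22, where that of every gene tested was 0.017.

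Total counts ran between 10436147 and 12308039 in ML141 libraries and between 8284299 and 10837224 in DMSO libraries. Of 14 precursor B cell markers, which include PAX5 and CD79A, 13 were tested, while VPREB1 had 1 count in all. Among those tested 9 rose and 1 fell, or 76.9% called against 54.4% of all genes tested. The 14 markers summed to 9976 to 10304 CPM with ML141 and 7968 to 8750 CPM with DMSO (CPM are counts scaled to library size with TMM factors). The part of these markers in the iron results was not tested. Summed levels of 13 erythroid markers were 3.71 to 6.41 CPM with ML141 and 3.11 to 4.66 CPM with DMSO. Of that list 8 genes, the globins among them, were listed at 0. The 10 macrophage and monocyte markers summed to 7.77 to 13.0 CPM with ML141 and 8.56 to 10.4 CPM with DMSO, with MARCO, FCGR1A and FCGR3A at 0. In 8 T and NK cell markers the sums were 1.11 to 1.96 CPM with ML141 and 0.771 to 1.30 CPM with DMSO. Genes that every cell uses, such as RPS18 and EIF4A1, were also listed at 0. The zeros and the low sums of these marker lists therefore do not show that a cell type is absent. In bulk RNA, fewer cells of a type and less RNA per cell cannot be told apart.

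TFRC encodes the transferrin receptor, the main gate for iron into dividing cells (chromosome 3, 196027183 to 196082189, minus strand, hg38). Its level was 209.9, 228.1 and 222.7 CPM in ML141 replicates 1, 2 and 3, against 669.0, 789.5 and 729.2 CPM in DMSO replicates 1, 2 and 3. Every ML141 library lay far below every DMSO library, and the spread within each group was small beside the gap. Groups that did not overlap were found for 61.2% of all genes tested. The means were 220.2 ± 9.35 CPM with ML141 and 729.2 ± 60.3 CPM with DMSO (SD, n = 3 each), or -1.73 on the log2 scale (SE 0.0856, edgeR adjusted p = 7.65e-08). By fold change TFRC held rank 133 from the lowest of 11454 genes, and by p-value rank 22. By mean level it held rank 886 of all entries with ML141 and rank 171 with DMSO. The authors' deposited table gives a log2 fold change of -1.735 for the same comparison.

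**Figure D1:**
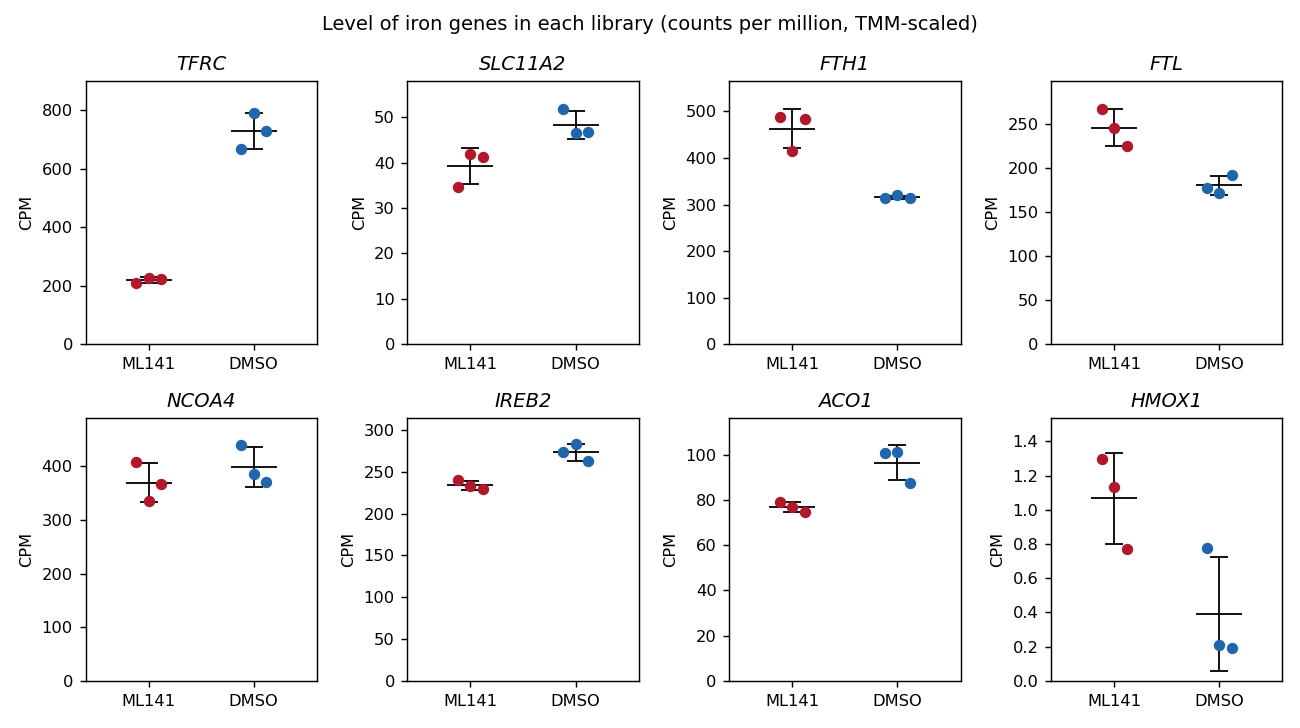
Level of 8 iron genes in CPM, a panel per gene, with ML141 libraries in red and DMSO libraries in blue, a point per library and the mean ± SD of 3 as a bar. TFRC lies between 209.9 and 228.1 CPM with ML141 and between 669.0 and 789.5 CPM with DMSO, and the groups of NCOA4 and HMOX1 overlap.

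SLC11A2 encodes DMT1, the transporter that passes iron out of endosomes (chromosome 12, 50979401 to 51028566, minus strand). Its level was 34.7, 42.0 and 41.3 CPM with ML141 and 51.9, 46.4 and 46.8 CPM with DMSO in replicates 1, 2 and 3. The groups did not overlap, but the nearest libraries were close, and the shift was -0.29 on the log2 scale (SE 0.108, edgeR adjusted p = 0.0363). It was no longer past the test without ML141 replicate 1 (adjusted p = 0.0838) or 3 (0.0601), without DMSO replicate 1 (0.119), 2 (0.0690) or 3 (0.0644), with upper-quartile factors (0.177), with library totals (0.377) and without a filter on low counts (0.0598). STEAP3, an endosomal reductase that readies iron for that transporter in red cell precursors, was listed at 0 in all 6 libraries. Genes that every cell uses, such as RPS18, PSMB3, NDUFA6 and EIF4A1, looked up after this was seen, were also listed at 0. A 0 in this table therefore does not show that the gene is silent.

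FTH1 encodes the ferritin heavy chain, which oxidizes iron for storage (chromosome 11, 61959718 to 61967660, minus strand). It stood at 489.2, 415.5 and 484.7 CPM in ML141 replicates 1, 2 and 3, against 314.7, 319.6 and 314.0 CPM in DMSO replicates 1, 2 and 3. All ML141 libraries were above all DMSO libraries, which were nearly equal to each other. Mean levels were 463.1 ± 41.3 CPM with ML141 and 316.1 ± 3.07 CPM with DMSO (SD, n = 3 each), or 0.55 on the log2 scale (SE 0.0829, edgeR adjusted p = 1.64e-04). FTL encodes the light chain, which favours formation of the iron core (chromosome 19, 48965301 to 48966878, plus strand). Its level was 267.1, 246.0 and 225.5 CPM with ML141 and 178.1, 171.7 and 192.5 CPM with DMSO. The groups of FTL did not overlap either, and the shift was 0.45 on the log2 scale (SE 0.0865, edgeR adjusted p = 0.00100).

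Ferritin levels carry limits of their own. GENCODE lists 25 pseudogenes of FTH1 and 16 of FTL, near copies of the mRNA, and how reads matching several places were counted is not given in the sources used here. The table has entries for 2 FTH1 pseudogenes, with 17 counts in all, and for 1 FTL pseudogene, with 0. Of the exon bases of FTH1, 56.6% overlap BEST1, a channel gene on the opposite strand, and the library kit does not mark strand. BEST1 had 68, 63 and 63 counts in the ML141 libraries and 0, 1 and 1 in the DMSO libraries, against 16429 and 8768 summed counts of FTH1. Its part in the FTH1 result was not tested.

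**Figure D2:**
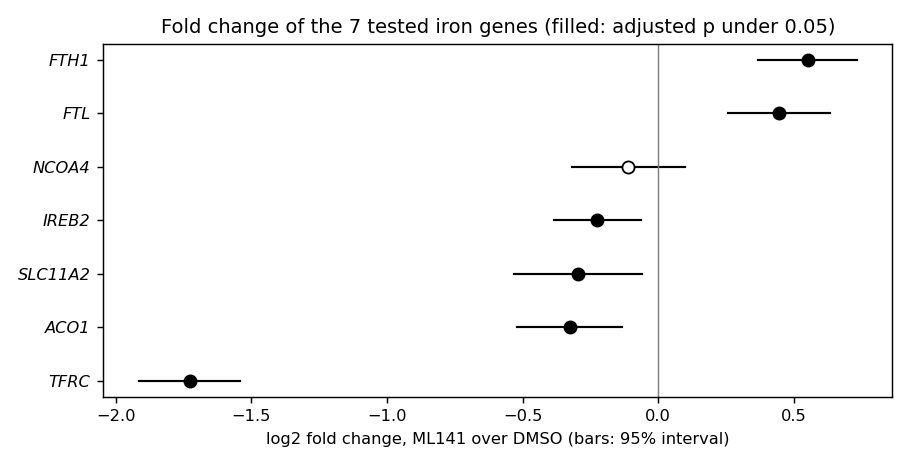
Log2 fold change of the 7 tested iron genes, ML141 over DMSO, with 95% intervals from the edgeR fit as bars and filled points for adjusted p under 0.05. TFRC stands at -1.73, apart from the others, FTH1 and FTL lie above 0, and the interval of NCOA4 crosses 0.

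NCOA4 encodes the receptor that delivers ferritin to lysosomes for breakdown (chromosome 10, 46005088 to 46030714, minus strand). Its level was 407.4, 334.8 and 367.7 CPM with ML141 and 440.8, 385.2 and 371.4 CPM with DMSO, and the groups overlapped. The log2 fold change was -0.11 with a 95% interval of -0.32 to 0.098 (edgeR adjusted p = 0.350). With library totals the value was 0.063. SLC40A1 encodes ferroportin, the only known exporter of iron from cells, and was listed at 0 in all 6 libraries, with the same caution as for STEAP3. At these depths 3 counts in a library, the limit that a count of 0 allows, correspond to 0.226 to 0.278 CPM in ML141 libraries and 0.289 to 0.389 CPM in DMSO libraries, for counting error only.

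HMOX1 encodes haem oxygenase 1, which frees iron from haem and is induced by oxidative stress. It had 14, 15 and 9 counts in ML141 libraries and 6, 2 and 2 counts in DMSO libraries, too few to enter the test. The levels overlapped, since ML141 replicate 3 stood at 0.774 CPM and DMSO replicate 1 at 0.778 CPM. Summed over libraries there were 38 counts with ML141 and 10 with DMSO, a ratio of 2.95 with a 95% Clopper-Pearson interval of 1.44 to 6.65, which covers counting error only. Without a filter on low counts edgeR gave an adjusted p of 0.0197 for this gene, whereas the authors' deposited table gives 0.106.

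IREB2 and ACO1 encode the iron regulatory proteins IRP2 and IRP1, the RNA-binding proteins that read the hairpins shown above. ACO1 is also the cytosolic aconitase when it holds an iron-sulfur cluster, and IREB2 protein is degraded when iron is plentiful. IREB2 stood at 239.7, 233.3 and 228.9 CPM with ML141 and 274.2, 282.7 and 262.7 CPM with DMSO. ACO1 stood at 79.1, 77.0 and 74.9 CPM with ML141 and 100.9, 101.3 and 87.6 CPM with DMSO. Neither gene's groups overlapped, and both shifts were small, at -0.22 for IREB2 (SE 0.0731, edgeR adjusted p = 0.0213) and -0.33 for ACO1 (SE 0.0893, edgeR adjusted p = 0.00846) on the log2 scale. The call of ACO1 did not hold without DMSO replicate 2 (adjusted p = 0.0506) and with library totals (0.127). That of IREB2 was lost without ML141 replicate 3 (0.0705), DMSO replicate 1 (0.0568) or DMSO replicate 2 (0.0972), with upper-quartile factors (0.134), with library totals (0.526) and without a filter on low counts (0.0638). IREB2 lies on chromosome 15 (78437431 to 78501456) and ACO1 on chromosome 9 (32384603 to 32454769), both on the plus strand.

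Scaling set how the small falls were read. The median over the genes tested was 0.12 with upper-quartile factors and 0.19 with library totals, above the value given for TMM factors, so falls read smaller and rises larger there. TFRC was at -1.62 and -1.55, FTH1 at 0.65 and 0.72 and FTL at 0.54 and 0.62 under upper-quartile factors and library totals, and all of these stayed past the test. The plot of the 4 scalings shows IREB2, SLC11A2 and ACO1 moving toward 0.

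**Figure D3:**
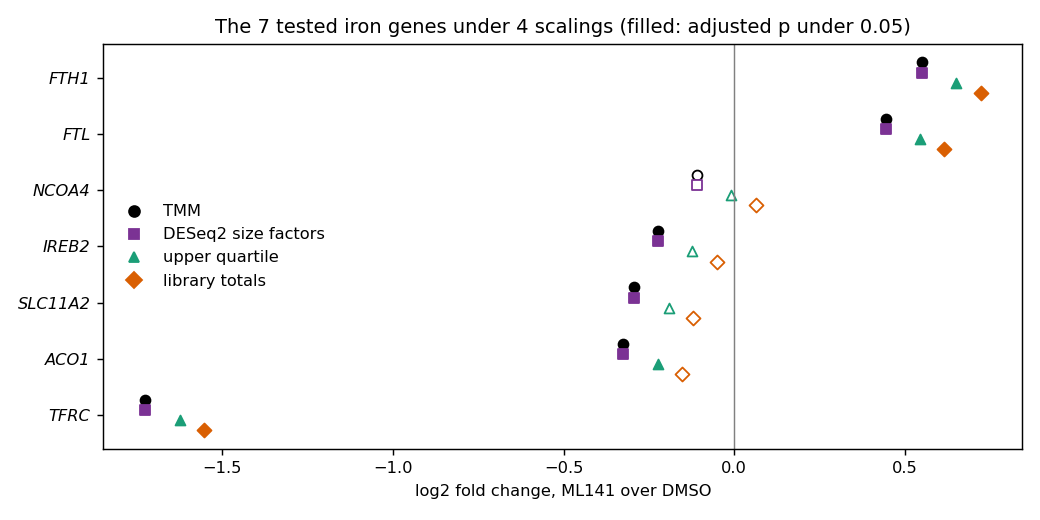
Log2 fold change of the 7 tested iron genes, ML141 over DMSO, under 4 ways of scaling the libraries, each with its own marker, filled for adjusted p under 0.05. TFRC, FTH1 and FTL keep filled markers under each of the 4, and NCOA4 sits at 0.063 with library totals.

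Ratios of 2 genes' counts within a library do not depend on scaling. The ratio of TFRC to FTH1 counts was 0.429, 0.549 and 0.459 in ML141 replicates 1, 2 and 3, against 2.13, 2.47 and 2.32 in DMSO replicates 1, 2 and 3. FTH1 thus had more counts than TFRC in every ML141 library and fewer in every DMSO library. Counts also depend on exon length, 5323 bases for TFRC and 1617 for FTH1. Per kilobase FTH1 was above TFRC in both groups, at 286.4 against 41.4 CPM with ML141 and 195.5 against 137.0 CPM with DMSO. The mean log2 ratio differed by -2.27, which is 4.83-fold lower with ML141. Its exact permutation p was 0.1 (2-sided, n = 3 each), the smallest that 3 against 3 can give. This ratio joins the fall of TFRC and the rise of FTH1 given above, so it is not a separate result. The ratio of FTL to FTH1 counts was 0.546, 0.592 and 0.465 with ML141 and 0.566, 0.537 and 0.613 with DMSO. Those groups overlapped, with a difference of -0.10 on the log2 scale (exact permutation p = 0.5, n = 3 each). The ratio of IREB2 to ACO1 counts was 3.03, 3.03 and 3.06 with ML141 and 2.72, 2.79 and 3.00 with DMSO, a difference of 0.10 on the log2 scale (exact permutation p = 0.1, n = 3 each).

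**Figure D4:**
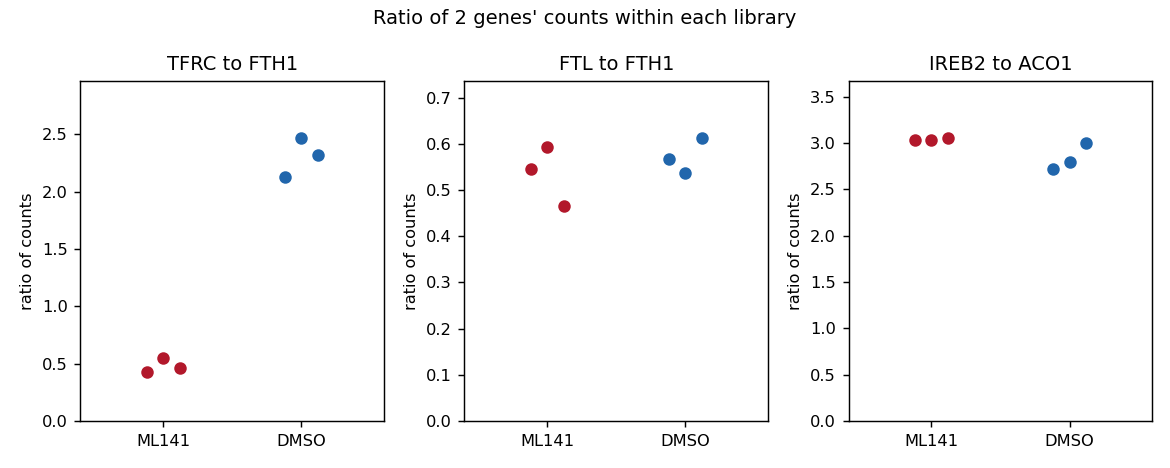
Ratio of the counts of 2 genes within each library, with ML141 libraries in red and DMSO libraries in blue. TFRC to FTH1 lies between 0.429 and 0.549 with ML141 and between 2.13 and 2.47 with DMSO, while FTL to FTH1 overlaps between the groups.

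Levels of different genes were compared per kilobase of annotated exon, which depends on the exons counted. FTH1 averaged 286.4 ± 25.5 CPM per kilobase with ML141 and 195.5 ± 1.90 with DMSO, and FTL 280.4 ± 23.7 with ML141 and 205.9 ± 12.1 with DMSO (SD, n = 3 each). These chains led the order in both groups and did not differ from each other beyond their spread. The limits given above for ferritin, overlap with BEST1 and pseudogenes, apply to these values and to the order. GENCODE also lists 3 pseudogenes of NCOA4. Next came NCOA4 with ML141, at 90.7 ± 8.92 CPM per kilobase, where TFRC was at 41.4 ± 1.76. With DMSO the pair stood the other way round, NCOA4 at 97.9 ± 9.01 and TFRC at 137.0 ± 11.3 CPM per kilobase. IREB2 followed at 24.6 ± 0.572 with ML141 and 28.8 ± 1.06 with DMSO, then, again for ML141 and DMSO, ACO1 at 10.2 ± 0.280 and 12.8 ± 1.03, SLC11A2 at 5.40 ± 0.549 and 6.64 ± 0.418, and HMOX1 at 0.586 ± 0.147 and 0.216 ± 0.183. Neighbours from IREB2 down were separated by more than their SDs.

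The genes whose pattern over the 6 libraries was most like TFRC, by root mean square difference of log2 CPM centred on DMSO, were RANBP1 (0.0541), ATP5G1 (0.0737) and PDSS1 (0.0770), out of 9689 genes compared. They fell by 1.78, 1.79 and 1.71 on the log2 scale. The measure picks genes with a fold change near that of the member, so this closeness, also for FTH1, is not a result. Of RANBP1 exon bases 24.1% overlap TRMT2A and of PDSS1 exon bases 12.7% overlap ABI1, both on the opposite strand. Most like FTH1 were ATRAID (0.0264), SMIM20 (0.0270) and AGA (0.0305), which rose by log2 0.53, 0.54 and 0.61, with 18.5% of ATRAID exon bases overlapping SLC5A6 on the opposite strand.

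Of 10 tested partners of iron entry 1 rose and 4 fell, or 50%, near the 54.4% of all genes tested, the median being -0.23 on the log2 scale (2 fell with library totals). SLC39A8 and SLC39A14, zinc transporters that also carry iron not bound to transferrin, averaged 60.1 ± 4.94 and 145.1 ± 3.68 CPM with ML141, against 108.2 ± 10.7 and 203.7 ± 19.5 CPM with DMSO. Their log2 fold changes were -0.85 (SE 0.102) and -0.49 (SE 0.0862). EXOC6, an exocyst subunit needed for transferrin recycling in mouse red cell precursors, was at -0.40 (SE 0.115), a call lost with library totals (adjusted p = 0.0799). The gene that rose was TF, transferrin itself, with 67 counts with ML141 and 6 with DMSO, a ratio of 8.68 (counting error only, 3.78 to 24.5). Its counts were 16, 24 and 27 in ML141 libraries and 3, 2 and 1 in DMSO libraries. It thus entered the test only through the ML141 group, where it is high. With a stricter filter on low counts it was not tested.

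In storage, chaperones and export 1 of 4 tested genes fell and 0 rose, 25% called against 54.4% of all genes tested. The median was -0.23, and library totals gave 1 lower and 1 higher. The gene that fell was PCBP1, a chaperone that hands iron to ferritin, at -0.46 (SE 0.0759), while its relative PCBP2 was at 0.01 and not past the test. The count of lower genes was 2 without ML141 replicate 3. PCBP1 shares 45.4% of its exon bases with PCBP1-AS1 on the opposite strand. HAMP, the hormone hepcidin, and FTMT, the mitochondrial ferritin, were listed at 0. Of 9 tested genes that control the iron regulatory proteins or ferritin turnover 2 rose and 4 fell, or 66.7% against that 54.4%. The median was 0.01, and library totals gave 3 and 2. SKP1, CUL1 and RBX1, the core of the ubiquitin ligase that marks IREB2 protein, were at -0.44 (SE 0.0885), -0.34 (SE 0.0817) and -0.79 (SE 0.110). CUL1, of whose exon bases 10.9% overlap AC005229.4 on the opposite strand, was not past the test with library totals (adjusted p = 0.0643). FBXL5, the iron-sensing subunit of that ligase, was at 0.07 and not past the test. TAX1BP1, an autophagy receptor that acts in ferritin delivery, rose by log2 0.66 (SE 0.123), and NDFIP1, an adaptor that promotes degradation of SLC11A2 protein, by 0.76 (SE 0.138).

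Of 8 further mRNAs known for an iron-responsive element 4 were tested, with 0 higher and 2 lower and a median of -0.28. The 50% called is near the 54.4% of all genes tested, and 1 was lower with upper-quartile factors or library totals. SDHB, of respiratory complex II, known for such an element in fly, fell by 0.38 on the log2 scale (SE 0.0857). CDC14A, a phosphatase gene with an element in its 3′ untranslated region, fell by 0.42 (SE 0.126), a call lost without ML141 replicate 3 (adjusted p = 0.0506) or DMSO replicate 3 (0.0617), with 1 lower gene left in the list each time. Its match to the search is shown for comparison with TFRC, which also carries the hairpin behind the coding region.
CDC14A, chr1:100518583-100518611, plus strand: tatttacatgtaCAGTGTtacattatata
EPAS1, the hypoxia factor HIF-2 alpha, had 93 counts with ML141 and 53 with DMSO, or 0.44 on the log2 scale (SE 0.253, edgeR adjusted p = 0.157). CDC42BPA, a kinase that binds CDC42, was listed at 0.

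Of 23 tested genes of mitochondrial iron import and iron-sulfur cluster assembly 2 rose and 5 fell, with a median of -0.02. The share called was 30.4%, below the 54.4% of all genes tested. With upper-quartile factors and with library totals 6 rose and 5 fell, and 4 rose without a filter on low counts. BOLA3, which helps pass clusters to lipoate-making enzymes, was at -1.13 on the log2 scale (SE 0.145) and NDUFAB1, the mitochondrial acyl carrier, at -0.78 (SE 0.0981). ISCU, the scaffold on which clusters are built, rose by log2 0.83 (SE 0.159), and FDX1L, a mitochondrial ferredoxin, by 0.58 (SE 0.182). FDX1L did not pass without ML141 replicate 2 (adjusted p = 0.0538) or DMSO replicate 2 (0.101), and the list then had 4 and 1 higher genes. The iron importers SLC25A37 and SLC25A28 stood at 0.07 and -0.21 and did not pass the test.

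In the cytosolic assembly of iron-sulfur proteins 2 of 12 tested genes rose and 3 fell, with a median of -0.05. Library totals gave 3 and 3, and the main fit called 41.7% of the list, against 54.4% of all genes tested. GLRX3, an iron-carrying glutaredoxin, was at -0.70 (SE 0.102), FAM96A at -0.51 (SE 0.0892) and CIAPIN1, an electron carrier, at -0.41 (SE 0.0851). ORAOV1, an adaptor for a ribosome recycling factor, rose by log2 0.71 (SE 0.138) and NARFL by 0.42 (SE 0.140). The count of higher genes was 1 without ML141 replicate 2, ML141 replicate 3 or DMSO replicate 1, where NARFL had adjusted p-values of 0.0533, 0.0666 and 0.0862.

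Haem synthesis showed 1 higher and 5 lower of 14 tested genes, 42.9% called against 54.4% of all genes tested. The median was 0.02, and counts were 4 and 4 with upper-quartile factors and 6 and 4 with library totals. ABCB10, a mitochondrial transporter needed for haem synthesis in mouse red cell precursors, was at -0.90 (SE 0.0902). PGRMC1, a haem-binding membrane protein, was at -0.96 (SE 0.101) and CPOX, coproporphyrinogen oxidase, at -0.68 (SE 0.114). TSPO, an outer mitochondrial membrane protein that binds porphyrins, rose by log2 0.73 (SE 0.197). Without ML141 replicate 1 or 2 the list had 2 higher genes. ALAS1, the first enzyme, and FECH, which inserts iron, were at 0.17 and 0.11 and did not pass the test.

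Of 6 tested genes of haem transport and breakdown 2 rose and 3 fell, with a median of -0.21, the same counts with library totals. That share of 83.3% in a list of 6 stands beside 54.4% of all genes tested. FLVCR1, a membrane transporter first described as a haem exporter, was at -0.80 (SE 0.111) and BLVRA, a biliverdin reductase, at -0.66 (SE 0.111). ABCG2, an efflux pump that accepts porphyrins, had 26 counts with ML141 and 67 with DMSO, a ratio of 0.302 (0.184 to 0.481). Its counts were 8, 8 and 10 in ML141 libraries and 22, 25 and 20 in DMSO libraries. ABCG2 thus entered the test only through the DMSO group, where it is high, and falls under the stricter filter on low counts. LRP1, a receptor that takes up haem bound to hemopexin among many ligands, rose to 58.4 ± 3.09 CPM with ML141, against 26.6 ± 2.51 CPM with DMSO, or 1.13 on the log2 scale. SLC48A1, a lysosomal haem transporter, rose 1.96-fold. HMOX2, the constitutive haem oxygenase, was listed at 0, with the same caution as for the exporter.

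Among transcription factors known to act on iron genes 6 of 15 rose and 2 fell, with a median of 0.21. The 53.3% called is near the 54.4% of all genes tested, and library totals gave 7 and 2. ATF4, the stress factor of the amino acid response, averaged 685.2 ± 15.3 CPM with ML141 and 389.2 ± 18.5 CPM with DMSO, a log2 fold change of 0.82 (SE 0.0751). BACH2, a B-lineage repressor related to BACH1, rose by log2 0.44 (SE 0.0843) and USF1 by 0.32 (SE 0.0868). MYC, which can activate TFRC, was at 183.7 ± 20.3 CPM with ML141 and 285.8 ± 20.4 CPM with DMSO, a log2 fold change of -0.64 (SE 0.0951). MAFF, a small MAF protein, had 49 counts with ML141 and 88 with DMSO, a ratio of 0.433 (0.299 to 0.621). BACH1, the haem-sensing repressor of HMOX1 and the ferritin genes, was at -0.03, and NFE2L2, its activating counterpart, at -0.24. Neither passed the test. The count of higher factors was 3 without DMSO replicate 1 and 2 without DMSO replicate 2, where USF1 was not past the test (adjusted p = 0.0567).

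Lipid peroxide defence and ferroptosis, a form of death that needs iron, showed 5 higher and 5 lower of 15 tested genes. They make 66.7% of the list, where 54.4% of all genes tested were called. The median was -0.09, and library totals gave 5 and 4. SLC7A11, the cystine importer, averaged 156.3 ± 32.9 CPM with ML141 and 61.5 ± 5.99 CPM with DMSO, 2.54-fold higher. CHAC1, which degrades glutathione, rose by log2 2.67 (SE 0.335) and SAT1, a polyamine acetylase, by 0.57 (SE 0.167). VDAC3, a pore of the outer mitochondrial membrane, was at -0.79 (SE 0.0864) and LPCAT3, a phospholipid acyltransferase, at -0.86 (SE 0.107), where 66.4% of its exon bases overlap EMG1 on the opposite strand. GPX4, the peroxidase that guards membrane lipids, was at -0.13 and did not pass the test. The number of higher genes was 3 without ML141 replicate 2, ML141 replicate 3 or DMSO replicate 2, and 2 without DMSO replicate 1. SAT1 was lost without ML141 replicate 3 (adjusted p = 0.0664) and without DMSO replicate 1 (0.0509).

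**Figure D5:**
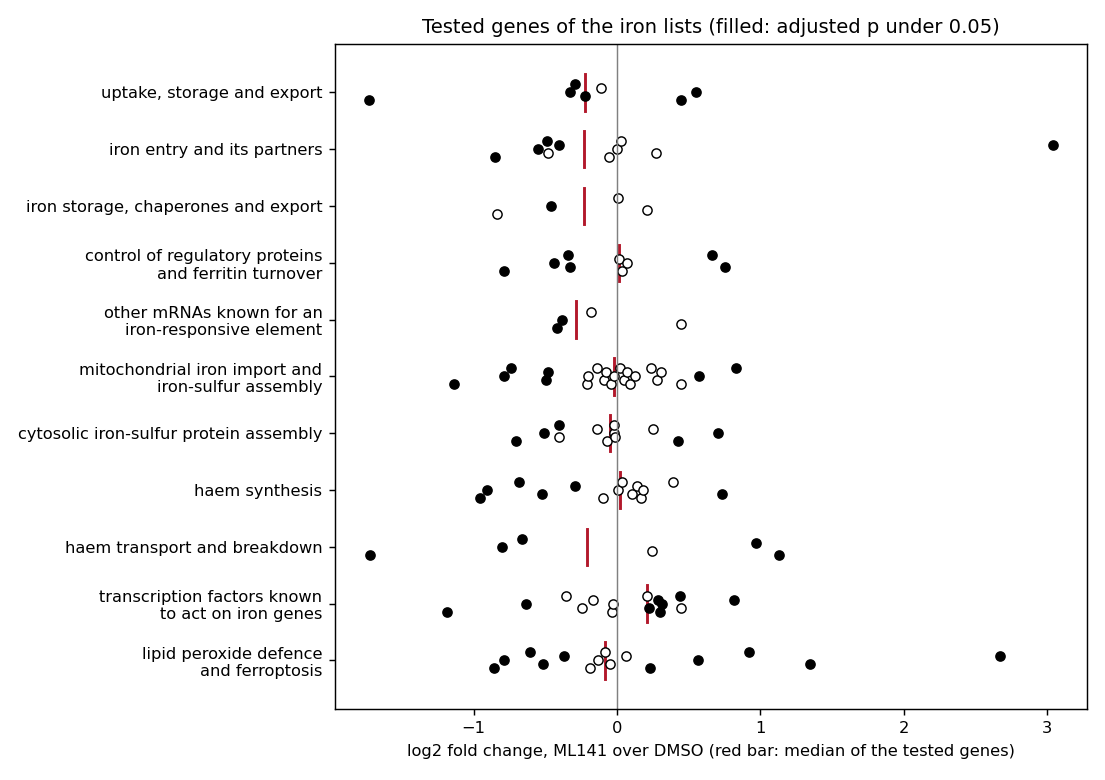
Log2 fold change, ML141 over DMSO, of each tested gene of the iron genes and of the other iron lists, filled for adjusted p under 0.05, with a red bar at each list's median. Medians run between -0.28 and 0.21, with TFRC far to the left of the other members at -1.73.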

How the data were processed

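Libraries were made with the Illumina TruSeq RNA v2 kit, per the labels' protocols, which enriches polyadenylated RNA and does not mark strand. Raw counts for each gene symbol and library were deposited in a single table. Build hg38 and the tools DESeq2, featureCounts, Picard, Bowtie2, Trimmomatic and bcl2fastq are named in the submitters' processing notes, while roles and settings are not given in the sources. The authors also deposited scores (counts over a size factor, rounded), which were not used, and a log2 fold change and p-values of their own comparison, quoted only where named.

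Columns were matched to samples through the descriptions in the labels. Within groups each pair of libraries differed by more than sampling noise (chi-square per degree of freedom 3.02 to 19.5). The labels describe independent experiments but not separate cultures, so p-values measure the spread between these libraries.

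Genes kept by filterByExpr at its defaults (minimum count 10, minimum total 15) were scaled with TMM and tested with edgeR 4.0.16 in R 4.3.3 (glmQLFit, glmQLFTest, 2-sided, group as the only term, Benjamini-Hochberg over all genes tested, threshold 0.05). The script was tested on simulated data. The standard error is the log2 fold change over the square root of F. Intervals of count ratios are Clopper-Pearson at 95%. In within-library ratios 0.5 was added to each count. Alternatives were other scalings, no or a stricter filter, the DESeq2 1.42.0 Wald test, limma-voom (limma 3.58.1), the replicate number as a block, and each library left out. Positions, exon lengths and sequences are from GENCODE release 29 on GRCh38.

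The members and lists were chosen with earlier results of these data known. Named genes were all members, up to 3 genes per list with the smallest p in the direction with more calls and 2 in the other, all tested mRNAs of the hairpin list, and 3 genes most like the member with the largest rise and the largest fall (mean of at least 5 CPM). The other genes named, such as PCBP2, FBXL5, BACH1, GPX4 and haem enzymes not past the test, and genes listed at 0, were picked after their values were seen. Some genes that this rule names are not reported here.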

Additional observations from a re-analysis of the deposited data

How the results depend on the processing

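The count of members higher with ML141 was 2 in the main fit and between 2 and 3 in the alternatives, with HMOX1 added without a filter on low counts, without ML141 replicate 3 and without DMSO replicate 1. The count of members lower, 4 with TMM factors, was 2 with upper-quartile factors, 1 with library totals and 2 without a filter on low counts, and between 1 and 4 with a library left out. TFRC, FTH1 and FTL kept direction and call in each of 14 alternatives, with log2 fold changes of -1.79 to -1.55, 0.51 to 0.72 and 0.38 to 0.62. ACO1 kept its call in 12 of 14 alternatives, IREB2 in 8 and SLC11A2 in 6, without a change of direction. NCOA4 changed sign with library totals, at 0.063. The number of genes changed over the whole table ranged from 5077 to 6979 around 6230, and the cause of these differences was not tested. With the replicate number as a block 6979 genes changed, 2 members were higher and 4 lower, and counts moved in the lists of storage (2 lower), mitochondrial cluster assembly (5 higher), haem synthesis (2 higher) and transcription factors (4 lower). Deviations from the group means correlated at 0.403, 0.092 and 0.191 between libraries of the same number. ML141 replicate 2 correlated at 0.312 with DMSO replicate 3, and the remaining combinations ran from -0.393 to -0.025. With 3 libraries per group these values cannot settle whether same-numbered libraries are pairs. The column names of same-numbered libraries share a part, and the main fit did not use the numbers. The log2 ratios within a library differed by -2.27 (TFRC to FTH1), -0.10 (FTL to FTH1) and 0.10 (IREB2 to ACO1) also in the fit with the block, where 3 pairs allow no p below 0.25. Depth limits HMOX1, TF, ABCG2, MAFF and EPAS1, which had few counts.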
